A study of Homo sapiens with 24 samples.

Results

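Collagen genes were followed in A549, an epithelial cell line that was established from a human lung adenocarcinoma, kept in control medium or in CAF conditioned medium. The labels do not spell out CAF, which in this field usually stands for cancer-associated fibroblast. RNA was collected at 3, 6, 12, 24, 48 and 72 h, with 1 mRNA library and 1 small RNA library per medium and time, so each medium has 6 mRNA libraries. The design text names 2 biological replicates, but the gene table gives 1 value for each medium and time. A single time therefore has no replicate check, and the 6 times stand as the replicates of the effect of the medium. No label ties the libraries to separate cultures. The p-values therefore measure the scatter among these libraries alone, and part of it may be technical. The labels give no other genotype or agent for either group.

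The collagen genes are every row of the gene table whose symbol is COL, a number, the letter A and a number, the usual form for collagen chains, which gave 43 of 22026 genes. The rule reads gene names. Of the 43, 18 had a mean of at least 1 RPKM over the 12 libraries and were tested, and 25 were below it. RPKM are read counts divided by gene model length and by library size, so levels of different genes can be set side by side per length. The filter uses the mean over both media, and COL4A3, for example, passed it with a control mean of 0.878 RPKM, so counts and medians over the 18 describe those that passed and support nothing by themselves.

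Collagens are extracellular proteins built from 3 alpha chains wound into a helix, and most types need a fixed set of chains. Fibrillar collagens (types I, II, III, V, XI, XXIV and XXVII) form the fibres of connective tissue, type IV forms the network of basement membranes, type VII anchors the epithelium to the tissue below it, and type VI forms beaded microfilaments. FACIT collagens sit on the surface of fibrils, transmembrane collagens are anchored in the cell membrane, and multiplexins are basement membrane proteoglycans. In lung, fibroblasts are the main source of types I and III, and epithelial cells contribute to the basement membrane. Chains are hydroxylated and folded in the endoplasmic reticulum, exported in large carriers, trimmed outside the cell and crosslinked.

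The early libraries, of 3 to 12 h, held 23.9 to 29.3 M reads each, as worked out from the steps between low values. The late ones, of 24 to 72 h, held 33.9 to 40.6 M. Depth therefore moved with time in both media, and its part in any change with time was not tested. The label was checked against marker genes. The epithelial keratin KRT8 lay between 1265 and 2357 RPKM in every library. The 5 epithelial markers summed to 2447 to 3211 RPKM in control and 1969 to 3481 RPKM in CAF medium. KRT8 and KRT18, with means of 1862 and 906 RPKM, gave nearly all of that sum. KRT19 had 1.56 to 34.05 RPKM, CDH1 4.68 to 40.04 RPKM and EPCAM only 0.24 to 6.46 RPKM. The 10 fibroblast markers summed to 6.84 to 12.2 RPKM in control and 6.43 to 13.7 RPKM in CAF medium, 5 of the 10 stayed under 1 RPKM in every library, and none was at 0 in all. All 4 endothelial markers stayed under 1 RPKM, and of the immune markers CD68, which is also found in lysosomes of other cells, gave most of the sum. The CAF medium library of 24 h was most like the control library of 48 h, with a correlation of 0.993 across tested genes, against 0.970 with the control of its own time. The control library of 24 h was most like that of 6 h, at 0.989. Calls that rest on the 24 h pair are therefore given with and without it, while medians and counts of signs over the collagens include it.

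The promoters of the chains on which the results turn are printed first, as RefSeq windows of GRCh38.p14 that run from 250 bases before to 50 bases after the gene's start, which is position 251. Capitals mark the GC box GGGCGG, the CCAAT box CCAAT and the TATA box TATAAA, each searched on both strands. The type IV chains are encoded in head-to-head pairs, with 126 bases between the starts of COL4A1 and COL4A2, 135 between those of COL4A4 and COL4A3, and 379 between those of COL4A6 and COL4A5. The COL4A2 window (plus strand) also holds the start of COL4A1, at position 124 on the opposite strand. The COL4A5 window (plus strand) holds the start of COL4A5 alone, as that of COL4A6 lies outside it. Both chains of this X-linked pair lie among the 10 most abundant collagens. The windows of COL6A2 (plus strand), COL7A1 (minus strand) and COL13A1 (plus strand) belong to 3 of the 4 chains that were higher in CAF medium in 1 or more fits, the other being COL1A1.
COL4A2, chr13:110307034-110307333: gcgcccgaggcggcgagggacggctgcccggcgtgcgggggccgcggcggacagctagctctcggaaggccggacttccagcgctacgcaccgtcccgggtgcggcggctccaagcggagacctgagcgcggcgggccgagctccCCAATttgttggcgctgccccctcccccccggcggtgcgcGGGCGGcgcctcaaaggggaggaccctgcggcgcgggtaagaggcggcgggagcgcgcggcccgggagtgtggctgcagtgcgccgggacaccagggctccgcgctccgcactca
COL4A5, chrX:108439588-108439887: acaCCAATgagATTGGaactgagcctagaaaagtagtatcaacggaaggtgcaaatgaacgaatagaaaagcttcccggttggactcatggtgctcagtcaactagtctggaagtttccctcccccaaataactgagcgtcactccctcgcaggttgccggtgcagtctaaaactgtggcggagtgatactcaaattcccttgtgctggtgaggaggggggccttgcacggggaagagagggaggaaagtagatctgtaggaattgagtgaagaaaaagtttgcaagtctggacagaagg
COL6A2, chr21:46097862-46098161: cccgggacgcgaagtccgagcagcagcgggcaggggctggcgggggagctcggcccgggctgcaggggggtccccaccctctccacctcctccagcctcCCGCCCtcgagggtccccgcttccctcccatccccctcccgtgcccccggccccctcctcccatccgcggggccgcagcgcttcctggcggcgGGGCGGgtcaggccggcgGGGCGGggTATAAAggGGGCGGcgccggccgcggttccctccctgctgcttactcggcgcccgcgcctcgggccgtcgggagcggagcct
COL7A1, chr3:48595280-48595579: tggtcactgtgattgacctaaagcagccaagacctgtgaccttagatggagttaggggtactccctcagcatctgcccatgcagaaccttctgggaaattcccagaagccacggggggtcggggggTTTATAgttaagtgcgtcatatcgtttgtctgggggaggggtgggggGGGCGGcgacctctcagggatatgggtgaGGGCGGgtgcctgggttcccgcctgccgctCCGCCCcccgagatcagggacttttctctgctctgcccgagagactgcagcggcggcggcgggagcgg
COL13A1, chr10:69801656-69801955: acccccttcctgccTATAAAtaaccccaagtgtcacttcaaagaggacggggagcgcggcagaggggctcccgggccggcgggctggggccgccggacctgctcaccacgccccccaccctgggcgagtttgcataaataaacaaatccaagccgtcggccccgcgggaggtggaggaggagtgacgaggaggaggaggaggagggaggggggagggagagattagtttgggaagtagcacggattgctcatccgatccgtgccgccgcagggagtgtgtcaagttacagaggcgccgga
The COL6A2 window held 4 GC boxes and 1 TATA box, and the COL7A1 window 3 GC boxes and 1 TATA box on the opposite strand. The COL13A1 window held 1 TATA box, the COL4A2 window 1 GC box and 1 CCAAT box, and the COL4A5 window 2 CCAAT boxes. Over all 35116 windows of this length, 45.0% held a GC box, 34.6% a CCAAT box and 11.5% a TATA box. Of the 13 tested collagens with a window at their outermost start, 10 held a GC box, 5 a CCAAT box and 3 a TATA box. A match of letters is a description and no evidence that a factor binds there.

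The collagen mRNA of these cells came from few chains, with little of type I and type III. COL5A2 had the highest mean, 60.0 RPKM, followed by COL4A2 with 51.4, COL5A1 with 48.2 and COL7A1 with 39.2 RPKM. These 4 gave 53.5 to 66.3% of the summed collagen RPKM of a library, and the 18 tested members gave 98.3 to 99.0%. The sum itself lay between 272 and 342 RPKM in control and between 291 and 402 RPKM in CAF medium. It was higher in CAF medium at 5 of the 6 times, although at 72 h it was nearly equal, with 342 RPKM in control and 343 RPKM in CAF medium. At 12 h it was lower, with 308 RPKM in control and 291 RPKM in CAF medium. Below the first 4 came COL4A5 with a mean of 22.7, COL4A1 with 19.3, COL18A1 with 17.0, COL4A6 with 13.4 and COL6A1 with 12.7 RPKM, so that 9 members had a mean of at least 10 RPKM.

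By class, all 6 basement membrane chains and the anchoring fibril chain passed the filter, as did 5 of 10 fibrillar chains, 2 of 5 beaded filament chains, 2 of 10 FACIT chains, 1 of 4 transmembrane chains and 1 of 2 multiplexins. None of the 3 hexagonal network chains and neither of the remaining 2 chains did. COL1A2, the partner of COL1A1 in type I collagen, had at most 0.12 RPKM in any library, and COL3A1, the only chain of type III, at most 0.16 RPKM. COL1A1 had a mean of 3.53 RPKM. Type I collagen is known as an assembly of 2 COL1A1 chains with 1 COL1A2 chain. COL21A1, COL28A1 and COL8A1 had means under 1 RPKM but reached it in at least 1 library. The other 20 low members had highest values of 0.01 to 0.86 RPKM, and 12 of them stayed under 0.1 RPKM in every library.

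**Figure D1:**
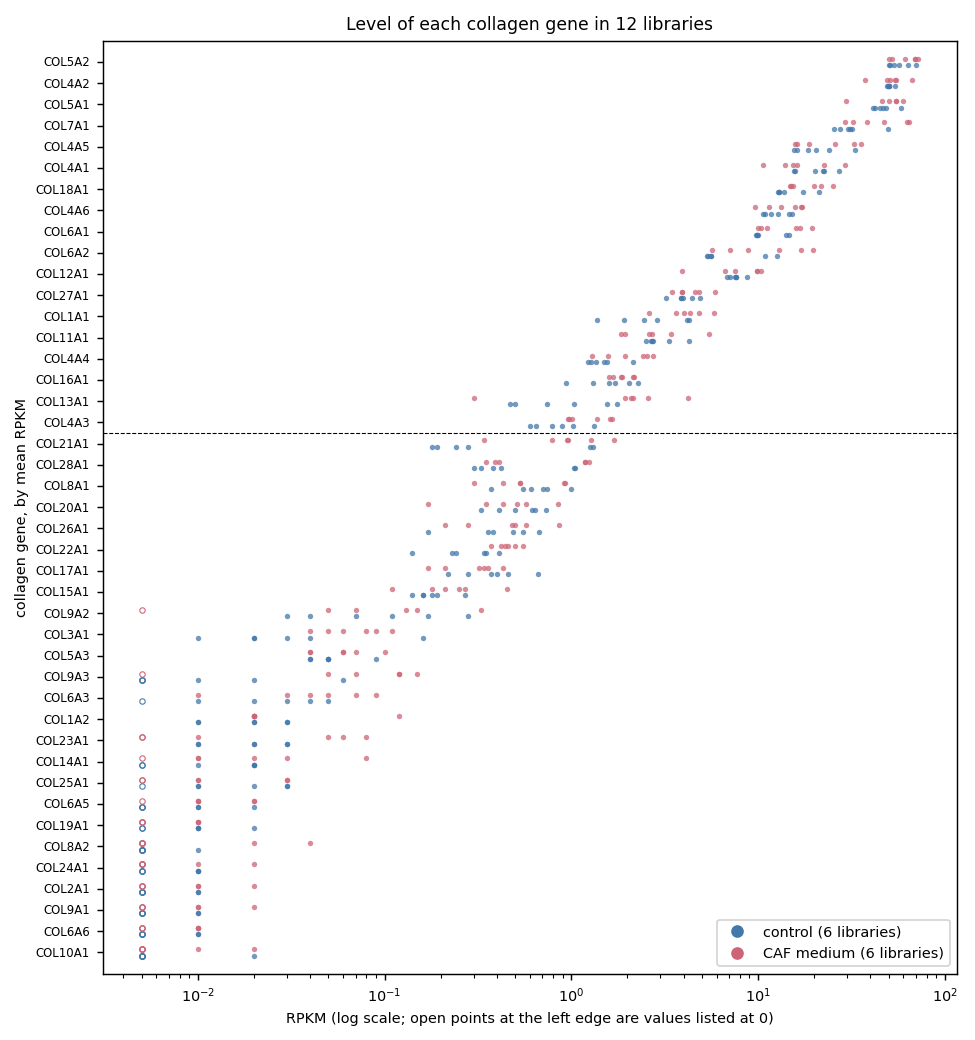
Level of each of the 43 collagen genes, one row per gene ordered by mean, with RPKM on a log axis, 1 point per library (blue control, red CAF medium) and open points for values listed at 0. Above the dashed line at a mean of 1 RPKM stand the 18 tested genes, from COL4A3 with a mean of 1.07 RPKM to COL5A2 with 60.0 RPKM.

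The medium comparison asks whether collagen mRNA in the tumour cells differed when they were given CAF conditioned medium. Over the 6 times, COL13A1, a transmembrane collagen of cell contacts, and COL6A2, a chain of beaded filaments, were higher in CAF medium. COL1A1 was higher over 3 to 12 h, and COL6A2 and COL7A1 were higher over 24 to 72 h. No tested collagen was lower past the test in any of these fits. In bulk RNA, less RNA per cell and fewer cells that hold it cannot be told apart. The estimates come from limma on log2(RPKM + 0.5), a scale that understates the change of low genes, with two-sided p-values. They were adjusted (Benjamini-Hochberg, 0.05) across the whole set of 12029 genes. Over the 6 times 2 of 18 collagens passed, both higher, against 10.2% of all tested genes, of which 6.06% were higher. Over 3 to 12 h 1 of 18 passed, as higher, against 5.63% of all genes and 3.77% higher. Over 24 to 72 h 2 of 18 passed, both higher, against 4.09% of all genes and 1.36% higher. As shares of the 18 these are 11.1%, 5.56% and 11.1%, so over the 6 times and over 3 to 12 h the share of collagens called was near that of all genes. With no filter on low values, none of these calls remained, nor did those over the 6 times when time was left out of the fit.

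Most of the 18 estimates were positive, that is, higher in CAF medium. The counts and medians describe genes that passed a filter on the mean of both media and are no test of the group. Over the 6 times 16 of 18 were positive, with a median log2 difference of 0.16 and a range of -0.24 to 0.75. All tested genes had a median of 0.0024, with 50.3% positive. Over 3 to 12 h 14 were positive with a median of 0.14, against 0.03 and 54.4% positive for all genes. Over 24 to 72 h 14 were positive with a median of 0.29, against -0.02 and 46.7%. At single times, which have no test, the count of tested collagens higher in CAF medium was 15 at 3 h, 15 at 6 h, 9 at 12 h, 17 at 24 h, 15 at 48 h and 12 at 72 h. Of all tested genes 59.4, 54.0, 50.5, 54.9, 43.7 and 39.6% were higher at these times, with medians of 0.08, 0.04, 0.009, 0.04, -0.06 and -0.05. The 12 h pair thus had as many collagens lower as higher, with a median log2 difference of -0.0024, and the 24 h pair the highest median, 0.31. A log2 difference of at least 1 to the higher side was reached by 1 collagen at 3 h, 2 at 6 h, 1 at 12 h, 1 at 24 h, 2 at 48 h and 0 at 72 h. Among all tested genes the share was 1.2%, 2.32%, 2.96%, 3.38%, 2.24% and 0.15% at these times. None of the 18 reached it on the lower side.

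COL6A2 encodes the second chain of type VI collagen and lies next to COL6A1 on chromosome 21. In control medium its level was 5.62, 5.63, 5.36, 5.37, 10.8 and 12.7 RPKM at 3, 6, 12, 24, 48 and 72 h. CAF medium gave 5.69, 7.06, 8.87, 13.0, 19.7 and 17.0 RPKM. The CAF medium library was the higher at all 6 times, and from 24 h on the ranges of the media did not overlap, although the control at 24 h was still at its early level. The log2 difference was 0.57 ± 0.14 (SE, 6 pairs, limma, adjusted p = 0.0322) over the 6 times and 0.82 ± 0.17 (SE, 3 pairs, adjusted p = 0.0251) over 24 to 72 h, a fold of 1.76. Over 3 to 12 h it was 0.33 (adjusted p = 0.253), and the late minus early difference, 0.48, did not pass (limma, adjusted p = 0.472). Without the 24 h pair the estimates were 0.45 over the 6 times and 0.62 over 24 to 72 h, with limma adjusted p of 0.101 and 0.131. The call over the 6 times was also lost when the pair of 6, 12 or 48 h was left out (adjusted p = 0.0743, 0.0923 and 0.0662), and the late call without the 48 h pair (0.182).

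COL6A1, its partner chain, was also higher in CAF medium at all 6 times. It had 9.91, 9.84, 9.71, 9.94, 14.6 and 14.1 RPKM in control and 10.4, 11.1, 10.1, 16.0, 19.6 and 16.9 RPKM in CAF medium from 3 to 72 h. The log2 difference was 0.27 over the 6 times and 0.44 over 24 to 72 h, and neither passed (limma, adjusted p = 0.110 and 0.0806). The third usual chain, COL6A3, had at most 0.09 RPKM in any library. Type VI collagen is known as an assembly of all 3 of these chains.

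COL7A1, on chromosome 3, encodes the only chain of the anchoring fibrils under stratified epithelia. Its control level was 30.98, 27.5, 31.7, 25.5, 30.4 and 49.7 RPKM from 3 to 72 h. CAF medium gave 29.4, 32.2, 47.1, 38.5, 62.6 and 64.4 RPKM. CAF medium was lower at 3 h and higher at the other 5 times. The ranges of the media overlapped, with 25.5 to 49.7 RPKM in control and 29.4 to 64.4 RPKM in CAF medium. Over 24 to 72 h the log2 difference was 0.66 ± 0.16 (SE, 3 pairs, limma, adjusted p = 0.0451), a fold of 1.58, and over the 6 times 0.45 ± 0.13 (adjusted p = 0.0510), just short of the threshold. The late call was lost without the 48 h pair (0.48, adjusted p = 0.364), without the 24 h pair (0.70, 0.115) and without the 6 or 12 h pair (0.0679 and 0.0507). Without the 3 h pair COL7A1 passed over the 6 times, with 0.55 and an adjusted p of 0.0247. The late minus early difference was 0.43 (limma, adjusted p = 0.506).

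COL13A1, on chromosome 10, was a low transcript that lay above its control from 6 h on. In control it had 0.50, 0.74, 0.47, 1.04, 1.55 and 1.75 RPKM from 3 to 72 h. In CAF medium it had 0.30, 2.58, 1.94, 2.10, 4.20 and 2.13 RPKM. CAF medium was lower at 3 h, where the values rest on 42 and 28 reads, and higher at the other 5 times. The log2 difference over the 6 times was 0.75 ± 0.21 (SE, 6 pairs, limma, adjusted p = 0.0494). It lost the call without the 6, 12, 24 or 48 h pair, with estimates of 0.64, 0.63, 0.75 and 0.66 and adjusted p of 0.145, 0.142, 0.119 and 0.103. It also lost the call with a pseudocount of 0.1 (adjusted p = 0.0689) or quantile normalization (0.0814). Over 3 to 12 h it was 0.77 (adjusted p = 0.142), and without the 3 h pair it was 1.32 (adjusted p = 0.0312). Its log2 difference was past 1 at 6, 12 and 48 h.

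COL1A1, on chromosome 17, encodes the main chain of type I collagen and was higher in CAF medium up to 24 h and lower after that. In control its level was 1.91, 1.37, 2.89, 2.45, 4.18 and 4.27 RPKM from 3 to 72 h, and in CAF medium 5.81, 4.02, 4.84, 4.31, 3.65 and 2.60 RPKM. The 3 early CAF medium libraries all lay above the 3 early controls, and at 48 and 72 h CAF medium was the lower. Over 3 to 12 h the log2 difference was 1.11 ± 0.23 (SE, 3 pairs, limma, adjusted p = 0.0259), a fold of 2.15, and over 24 to 72 h it was -0.03 (adjusted p = 0.957). The difference between the late and early effects was -1.14 ± 0.33, which did not pass (limma, adjusted p = 0.192), so a weaker late effect is not shown. Without the 24 h pair that difference was -1.50 and passed (adjusted p = 0.0210). The early call was lost without the 3, 6 or 12 h pair, with 0.96, 1.02 and 1.33 and adjusted p of 0.0766, 0.174 and 0.0914. Over the 6 times the difference was 0.54 (adjusted p = 0.156), and it passed only without the 72 h pair (0.77, adjusted p = 0.0376). COL1A1 is best known from fibroblasts. The sum of the 10 fibroblast markers overlapped between the media. All 10 had a higher mean in CAF medium, but several were near the floor. COL1A2 had it only through its 72 h library (0.12 RPKM, against 0.02 in the rest), and POSTN and PDGFRB had at most 14 reads. Of all tested genes, 50.3% had a positive log2 difference over the 6 times. FAP and FBN1, which gave most of the sum, had means 1.07 and 1.03 times those of control. FAP was higher in CAF medium at 3 times and lower at 3. LUM, PDGFRA, POSTN and FBN1 were higher at 4 and lower at 2, and PDGFRB higher at 4 and lower at 1. THY1, a surface protein of fibroblasts and other cells, was higher in CAF medium at 6 of 6 times, with 0.14, 0.12 and 0.15 RPKM in the early controls and 0.53, 0.57 and 0.92 RPKM in the early CAF medium libraries. COL3A1 was higher at the 3 early times, from 6, 12 and 7 reads against 3, 1 and 6, and DCN, a collagen-binding proteoglycan, was higher at 5 times. COL1A2 had at most 3 reads in each early library, too few to compare. The part of these markers in the COL1A1 values was not tested.

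**Figure D2:**
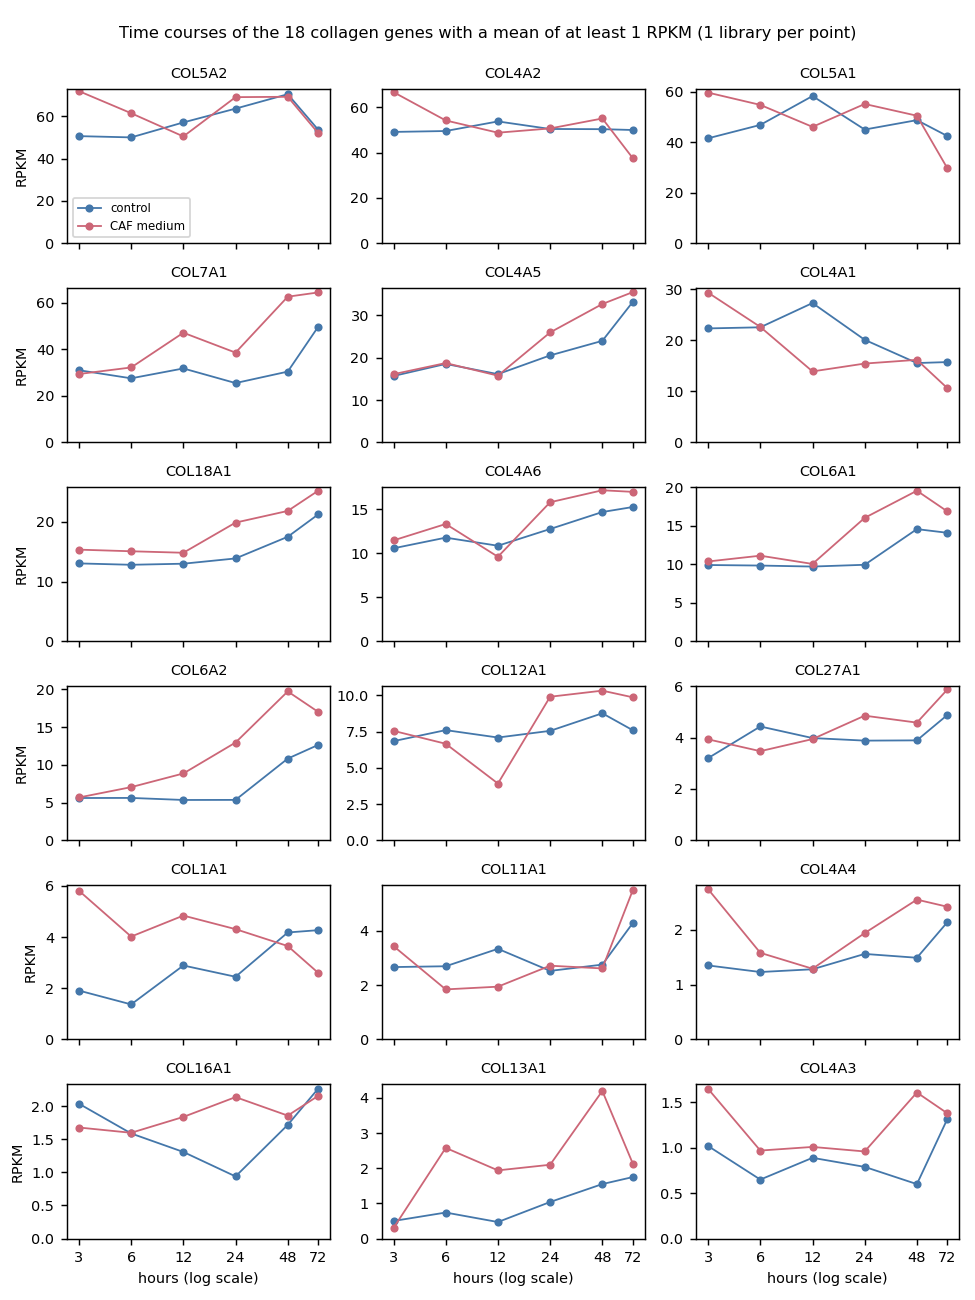
RPKM (linear axis from 0) against hours (log axis) for the 18 tested collagen genes, 1 library per point, blue control and red CAF medium. COL6A2 and COL7A1 are higher in CAF medium at 6 h and after, while the lines of COL1A1 cross between 24 and 48 h.

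The type V chains, the most abundant fibrillar collagens here, did not pass in any fit of the medium. COL5A2 ranged from 50.1 to 70.5 RPKM in control (median 55.4) and from 50.5 to 72.0 RPKM in CAF medium (median 65.3), and was higher in CAF medium at 3 times and lower at 3. COL5A1 ranged from 41.5 to 58.2 RPKM in control and from 29.6 to 59.6 RPKM in CAF medium, with its lowest value in the CAF medium library of 72 h. Their log2 differences over the 6 times were 0.11 and 0.04 (limma, adjusted p = 0.499 and 0.870), with 95% intervals of -0.12 to 0.34 and -0.25 to 0.33. COL5A3, the third type V chain, had at most 0.10 RPKM. COL11A1, a chain that can join type V fibrils, had 1.84 to 5.49 RPKM and COL27A1, a long fibrillar chain, had 3.20 to 5.87 RPKM, and both overlapped between media.

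None of the 6 basement membrane chains passed in a fit of the medium, where at most 10.2% of all tested genes did. COL4A2 stayed within 49.2 to 53.8 RPKM in control medium, and spread from 37.6 RPKM at 72 h to 66.8 RPKM at 3 h in CAF medium. COL4A1 went from 29.3 RPKM at 3 h to 10.6 RPKM at 72 h in CAF medium, and in control from 22.3 to 15.7 RPKM with a highest value of 27.3 at 12 h. Their log2 differences over the 6 times were 0.03 and -0.24 (limma, adjusted p = 0.899 and 0.325). COL4A5 lay between 15.7 and 33.2 RPKM in control and 15.8 and 35.5 RPKM in CAF medium, with a log2 difference of 0.15 (adjusted p = 0.312). COL4A6, its partner, had 10.6 to 15.3 RPKM in control and 9.61 to 17.2 RPKM in CAF medium. COL4A3 and COL4A4, the chains of the mature kidney and alveolar membrane, were low but higher in CAF medium at all 6 times. COL4A3 ranged from 0.60 to 1.32 RPKM in control and from 0.96 to 1.65 in CAF medium, and COL4A4 from 1.23 to 2.14 and from 1.29 to 2.74 RPKM. Their log2 differences of 0.36 and 0.35 did not pass (limma, adjusted p = 0.121 and 0.101).

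COL18A1, the multiplexin whose C-terminal fragment is endostatin, was higher in CAF medium at all 6 times. It had 13.0, 12.8, 13.0, 13.9, 17.5 and 21.2 RPKM in control from 3 to 72 h, and 15.3, 15.1, 14.8, 19.9, 21.8 and 25.2 RPKM in CAF medium. Each CAF medium value exceeded the control of its time, but the ranges of the media overlapped. Both media had their highest values at 72 h. The log2 difference was 0.28 ± 0.08 (SE, 6 pairs, limma, adjusted p = 0.0560), short of the threshold. COL12A1, a FACIT collagen of tissues under load, had its lowest value, 3.92 RPKM, in the CAF medium library of 12 h, against 7.09 RPKM in the control of that time. At 24, 48 and 72 h it was higher in CAF medium, at 9.90, 10.3 and 9.86 RPKM against 7.55, 8.76 and 7.59 RPKM, and the late minus early difference of 0.59 did not pass (limma, adjusted p = 0.365). COL16A1, another FACIT chain, stayed between 0.94 and 2.27 RPKM, with its lowest value in the control of 24 h.

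Of the members below the filter, which have no test, COL21A1, a FACIT chain, had 0.28, 0.19, 0.18, 0.24, 1.30 and 1.26 RPKM in control from 3 to 72 h. CAF medium gave 0.34, 0.79, 0.95, 1.28, 1.69 and 0.96 RPKM. Control thus went from 0.24 to 1.30 RPKM between 24 and 48 h, and CAF medium had passed 1 RPKM by 24 h. COL28A1, a chain of unusual structure near nerves, showed a like step, with 0.30 to 0.42 RPKM in control up to 24 h and 1.04 and 1.05 RPKM at 48 and 72 h. In CAF medium it had 0.35 to 0.41 RPKM up to 12 h and 1.24, 1.18 and 1.18 RPKM from 24 h on. In both genes the CAF medium library of 24 h was near the control library of 48 h, the pair of libraries that were most alike across all tested genes. COL8A1, a network collagen of vessel walls and the cornea, had its highest value, 1 RPKM, in the control of 24 h, against 0.53 RPKM in CAF medium.

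Change with time asks which collagens moved as the cultures aged, over both media. Of the 18, 6 rose and 1 fell, or 38.9%, against 24.7% of all tested genes, of which 15.1% rose and 9.62% fell. The fit takes the mean log2 value of both media at each time and its slope per doubling of the hours, so it rests on 6 points. COL6A2 rose by 0.31 ± 0.05 (SE) per doubling (limma, adjusted p = 0.00289), COL13A1 by 0.30 ± 0.07 (0.0130) and COL4A5 by 0.23 ± 0.05 (0.00744). COL7A1 rose by 0.17 ± 0.05 (0.0277), COL6A1 by 0.16 ± 0.04 (0.0203) and COL18A1 by 0.15 ± 0.04 (0.0200). COL4A1 was the only one called lower, at -0.19 ± 0.03 per doubling (0.00476). The median slope was 0.09 over the collagens and 0.02 over all genes.

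The 6 genes that rose all had their highest value at 48 or 72 h. COL4A5 went in control from 15.7 RPKM at 3 h to 33.2 RPKM at 72 h, and went from 16.1 to 35.5 RPKM in CAF medium. COL4A6, which starts 379 bases from it on the other strand, had a slope of 0.12 that did not pass (limma, adjusted p = 0.0522). It passed without the 12 h pair (limma, adjusted p = 0.0220). Of the 7 other settings, which keep all pairs, 4 left it short of the threshold and the rest called it. The type V chain COL5A2 had a slope of 0.02 (limma, adjusted p = 0.825). COL6A2 kept its call without any 1 of the 6 pairs. Without the 72 h pair only COL6A2 and COL13A1 of the collagens remained called, with COL4A1 at -0.17 (adjusted p = 0.0512) and COL4A5 at 0.19 (0.0683). COL7A1, COL6A1 and COL18A1 also lost the call without the 6 h or the 48 h pair, with limma adjusted p of 0.0674 to 0.0933, and COL13A1 without the 3 h or 48 h pair (0.112 and 0.0592). COL7A1 also lost its call when each library was centred on its median (adjusted p = 0.0774) or with no filter (0.0637), and COL13A1 with no filter (0.0524) or quantile normalization (0.0514).

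**Figure D3:**
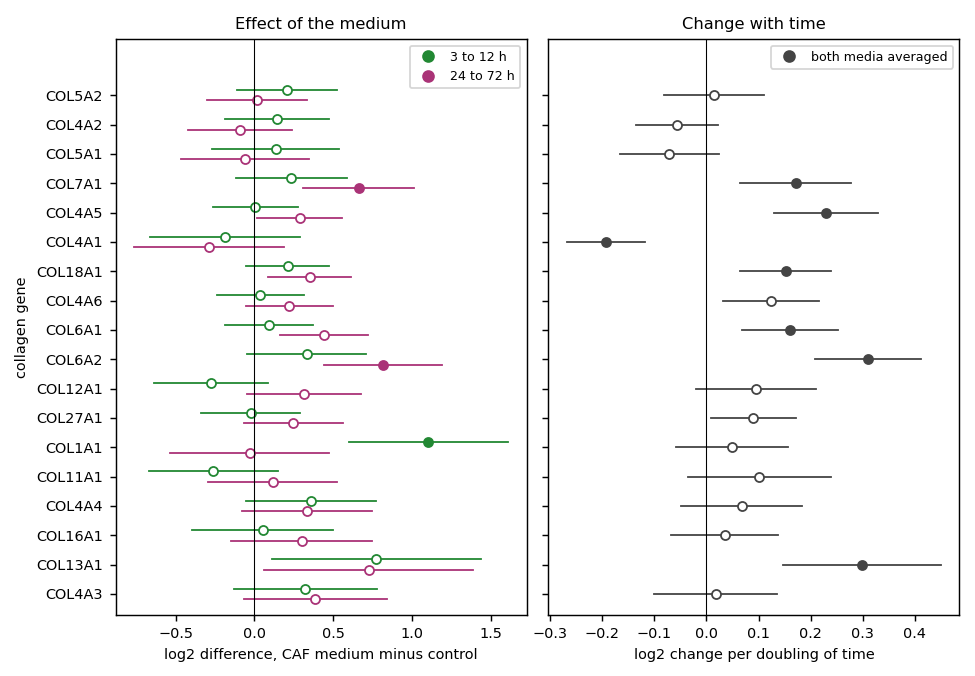
Left, log2 difference of CAF medium minus control over 3 to 12 h (green) and 24 to 72 h (purple); right, log2 change per doubling of time with both media averaged, for the 18 tested collagen genes ordered by mean level. Points are limma estimates, bars 95% intervals and filled points those with an adjusted p under 0.05: COL1A1 early, COL6A2 and COL7A1 late, and 7 genes in time.

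Chains that assemble together did not keep a fixed ratio of mRNA. The ratio of COL6A2 to COL6A1 was 0.567, 0.572, 0.552, 0.540, 0.744 and 0.899 in control from 3 to 72 h. In CAF medium it was 0.549, 0.635, 0.883, 0.809, 1.01 and 1.01, so it was at 12 h already near the control ratio of 72 h. The ratio of COL4A1 to COL4A2 moved the other way, from 0.453 at 3 h and 0.507 at 12 h to 0.314 at 72 h in control. The CAF medium ratio was 0.439 at 3 h, 0.284 at 12 h and 0.282 at 72 h. Protein networks of this type are known to hold 2 COL4A1 chains for each COL4A2 chain, while COL4A2 had the higher RPKM in all 12 libraries. The ratio of COL4A6 to COL4A5 ranged from 0.459 to 0.712, with its lowest values at 72 h in both media. That of COL5A1 to COL5A2 ranged from 0.568 in CAF medium at 72 h to 1.02 in control at 12 h, and that of COL4A3 to COL4A4 from 0.403 to 0.783. An antisense gene of COL4A2 and others of COL18A1 are also in the table, and whether their reads were kept apart is not given in the sources used here.

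**Figure D4:**
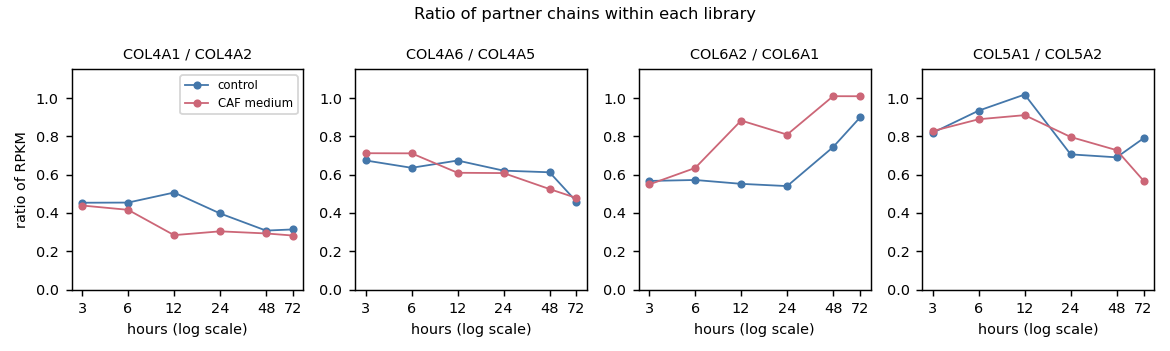
Ratio of the RPKM of partner chains in each library against hours (log axis), blue control and red CAF medium, 1 library per point. COL6A2 to COL6A1 climbs from 0.549 to 1.01 in CAF medium, and COL4A1 to COL4A2 falls to 0.282.

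The genes that handle collagen were taken as 4 lists. The enzymes and chaperones that hydroxylate and fold the chains had 15 of 16 genes tested. Over the 6 times 3 of the 15 were higher and none lower, 20% against 6.06% of all tested genes higher: LEPREL2 by 0.64 on the log2 scale (limma, adjusted p = 0.0263), P4HA3 by 0.40 (0.0358) and LEPRE1 by 0.36 (0.0465). LEPREL2 and LEPRE1 are prolyl 3-hydroxylases, and P4HA3 is a catalytic subunit of prolyl 4-hydroxylase. LEPREL2 had 1.73 to 6.00 RPKM in control and 2.79 to 7.82 RPKM in CAF medium, and was higher in CAF medium at every time. No enzyme passed over 3 to 12 h or over 24 to 72 h, where 5.63% and 4.09% of all tested genes passed. With time 5 of the 15 rose, namely LEPREL2, CRTAP, FKBP10, LEPRE1 and P4HA3, by 0.12 to 0.29 per doubling (adjusted p = 0.00484 to 0.0355), and 1 fell, where 15.1% of all tested genes rose and 9.62% fell. That gene, PLOD2, a lysyl hydroxylase that prepares crosslinks and named after its value was seen, fell by 0.16 per doubling (limma, adjusted p = 0.0393). In control PLOD2 had 90.6, 119, 129, 129.5, 68.8 and 54.3 RPKM from 3 to 72 h, so the drop came after 24 h. CAF medium gave 91.96, 84.7, 49.7, 70.2, 62.2 and 50.75 RPKM. Its log2 difference of -0.49 over the 6 times did not pass (limma, adjusted p = 0.0828).

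Of the 7 genes of collagen export, all tested, none passed in a fit of the medium. At most 10.2% of all tested genes passed in any such fit, so a list of 7 with none called does not stand apart. MIA3, which loads procollagen into carriers, rose with time by 0.24 per doubling (limma, adjusted p = 0.00690) and SEC24D, a coat subunit of these carriers, by 0.20 (0.0180). They were 2 of the 7, or 28.6%, and none fell, where 15.1% of all tested genes rose and 9.62% fell. Of 13 genes of propeptide processing and crosslinking 5 were tested. PCOLCE, which enhances the cleavage of the C-terminal propeptide of fibrillar procollagens, was higher in CAF medium over the 6 times by 0.58 (adjusted p = 0.0484) and over 3 to 12 h by 0.95 (0.0182). It had 0.56, 0.72 and 1.16 RPKM in the early controls and 1.40, 2.05 and 2.71 RPKM in the early CAF medium libraries, which did not overlap. It also rose with time by 0.22 per doubling (0.00860).

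Of the 10 receptors and uptake genes 9 were in the table and 4 were tested, with DDR1 not analysed here. MRC2, an endocytic receptor that takes up collagen fragments, was higher over the 6 times by 0.61 (limma, adjusted p = 0.0206) and over 3 to 12 h by 0.72 (0.0387). It went from 10.4 to 32.5 RPKM in control and from 16.9 to 33.1 RPKM in CAF medium between 3 and 72 h, where the media had met. ITGA10, the alpha chain of a collagen-binding integrin, was higher by 1.09 over the 6 times (adjusted p = 0.0209) and by 1.30 over 24 to 72 h (0.0445). Its level was 0.33 to 1.14 RPKM in control and 0.56 to 4.53 RPKM in CAF medium, highest at 48 h. Its control mean was 0.595 RPKM, so it passed the filter of 1 RPKM only through CAF medium, and its tests are therefore no independent support. With no filter its adjusted p was 0.0848 over the 6 times and 0.188 over 24 to 72 h. With time MRC2 rose by 0.32, ITGA2 by 0.29 and ITGA10 by 0.23 per doubling (adjusted p = 0.00269, 0.00445 and 0.0151). No gene of the 4 lists passed in the late minus early difference, where 0.416% of all tested genes passed. With no filter on low values, or with no time term, none of the medium calls over the 6 times in these lists remained, and with no filter none of the early and late ones did. Without the 24 h pair none of ITGA10, MRC2, PCOLCE, P4HA3, LEPRE1 and LEPREL2 kept its call over the 6 times. The same held without the 6 h or the 12 h pair, with adjusted p of up to 0.152. The early calls of PCOLCE and MRC2 were lost without the 6 h pair (limma, adjusted p = 0.152 and 0.196) or the 12 h pair (0.109 and 0.167), and that of MRC2 also without the 3 h pair (0.0776). The late call of ITGA10 was lost without the 6, 12, 24 or 48 h pair (0.0551, 0.0810, 0.159 and 0.375). Over the 6 times LEPRE1 and PCOLCE also lost the call without the 3 h pair, and LEPRE1 and P4HA3 without the 48 h pair. In the fit of time LEPREL2, PCOLCE, MRC2 and ITGA2 kept the call without any 1 of the pairs, and the others lost it without at least 1 of them.

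The miR-29 family, known for pairing with collagen mRNAs, was read in the 12 small RNA libraries of 0.868 to 5.77 M reads and described without a test. The mature sequences are from RefSeq, with the seed, bases 2 to 8, in capitals.
hsa-miR-29a-3p: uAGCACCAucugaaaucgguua
hsa-miR-29b-3p: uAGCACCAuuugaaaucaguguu
hsa-miR-29c-3p: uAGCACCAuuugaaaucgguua
The 3 share 1 seed and differ further along. In RPM, reads scaled to a common total, hsa-miR-29a-3p was the most abundant, with 10197 to 16085 in control (median 13019) and 10763 to 17414 in CAF medium (median 13500), higher in CAF medium at 3 times and lower at 3. For hsa-miR-29b-3p the levels were 339 to 874 RPM in control and 273 to 841 RPM in CAF medium, higher at 4 of 6 times. For hsa-miR-29c-3p they were 148 to 409 RPM and 103 to 426 RPM, higher at 5 of 6 times. The ranges of the media overlapped for all 3.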

How the data were processed

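Polyadenylated RNA and small RNA of A549 cells were sequenced in 12 libraries each, 1 per medium and time, which were grouped by the labels. The authors deposited mRNA values as RPKM to 2 decimals, beside gene model lengths, and small RNA values that each library scales to the same total, used here as RPM as deposited. The submitters' processing notes name TopHat2, edgeR and hg19 for mRNA, and Bowtie and hg19 for small RNA. How reads were counted, with or without strand, on which annotation, and how replicates were joined is not given in the sources used here. No value column was without a sample. Total reads were recovered from whole-read steps, with 100% of 66 to 107 low values per mRNA library whole within 0.1 read (gene models under 400 bases), and intervals on reads cover counting error only.

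Genes whose mean reached 1 RPKM were fitted as log2(RPKM + 0.5) in limma 3.58.1 (R 4.3.3, eBayes with trend, two-sided, Benjamini-Hochberg at 0.05). The medium effect had time as a factor, which pairs the libraries of a time, over the 6 times or over the 3 early and 3 late pairs together. Change with time was a slope on log2 hours of the means of both media. Single times were described by a log2 size of 1. The fits were tested on simulated data. Named were members with a mean of at least 1 RPKM, those reaching it in any library, COL1A2 and COL3A1, and related genes past a test, at most 5 per list and fit. The members and lists were chosen with earlier results of these data known. The alternatives were pseudocounts of 0.1 and 1, no filter, median centring, quantile normalization, no time term, other time fits and leaving out each pair. Promoter and miRNA sequences are from RefSeq tables of GRCh38.p14, matched by symbol or name, with 25 of 43 members having a window at the outermost start.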

Additional observations from a re-analysis of the deposited data

Results flagged for a closer look

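In 46 groups of 6 libraries (each named member in each medium), 5 had a highest library far from the others by Dixon's ratio, the gap to the nearest library over the whole range; the 95% critical value for 6 libraries was used. About 1 in 20 groups would pass that value if the 6 values were independent and of 1 normal distribution. Values along a time course, or low values rounded to 2 decimals, are not such, so this rate is no guide here. COL7A1 in control stood out at 72 h, with 49.7 RPKM against 31.7 RPKM for the next library (ratio 0.741). COL4A4 in control stood out at 72 h, with 2.14 against 1.56 RPKM (0.637). COL4A2 in control stood out at 12 h, with 53.8 against 50.5 RPKM (0.720). COL3A1 in control stood out at 48 h, with 0.16 against 0.04 RPKM (0.8). COL1A2 in CAF medium stood out at 72 h, with 0.12 RPKM from 26 reads against 0.02 RPKM in all 5 others (ratio 1).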

How the results depend on the processing

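With 1 library per medium and time, every call rests on few pairs. Of the collagens called, over the 6 times (2) the count was 1 with a pseudocount of 0.1, 1 with quantile normalization, 0 without a filter and 0 with no replicate block (no time term, which unpairs the libraries), and 0 to 3 when 1 pair was left out. Over 3 to 12 h (1) and 24 to 72 h (2) it was 0 and 0 without a filter, and 0 to 1 and 0 to 2 with a pair left out. The late minus early difference (0, with 2 at an unadjusted p under 0.05) gave 0 to 1 with a pair left out. Change with time (7) gave 2 to 8 with a pair left out and 6 to 10 under the other settings. Over all genes, 1226 calls over the 6 times became 0 without a filter (4744 unadjusted) and 0 with no replicate block (1691 unadjusted), and 34 to 1399 with a pair left out. The 677 early calls became 0 without a filter and 0 to 1084 with a pair left out, the 492 late calls 36 and 31 to 542, the 50 of the difference 0 and 0 to 242, and the 2968 of time 816 to 3460 with a pair left out. The cause was not tested. COL5A2 over time turned to -0.0069 under median centring and ranged from -0.016 to 0.067 with a pair left out. Other signs turned with a pair left out for COL1A1 over 24 to 72 h (-0.40 to 0.27), COL4A2 over the 6 times (-0.057 to 0.11) and COL5A1 over the 6 times (-0.057 to 0.15). Of the estimates of single genes under the alternatives, 587 kept direction and side of the threshold, 120 lost the call, 9 gained it and 7 changed sign. No scaling moved the median of all genes by over 0.1. Gene models with few reads, such as COL1A2, allow no comparison between media at this depth.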
